A study of Mus musculus with 2 samples.

Results

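Chromatin remodelers and histone deacetylases were examined in the primordial germ cells (PGCs) of the mouse embryo, which later give rise to eggs and sperm. Members were chosen by gene symbol alone: SMARC, ARID, CHD, INO80, MTA, MBD2/MBD3, GATAD2, BRD and ACTL6 genes, the numbered HDACs and the sirtuins. The rule found 69 of the 18877 rows of the expression table, 66 of them protein-coding. The other 3 were the pseudogenes Smarca5-ps and Smarce1-ps1 and the non-coding RNA Ino80dos. Actl6b, Arid5a, Chd5, Hdac10 and Sirt5 would also meet the rule and were not analysed here.

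RNA-seq was performed on PGCs from C57BL6 mouse embryos at E9.5, isolated by their surface antigen SSEA1. The methods describe the embryos as female, and the labels name no treatment. The paper calls its RNA-seq replicates biological, but neither it nor the labels say whether they came from separate embryos. What the spread between them covers is therefore uncertain. Both libraries, replicate 1 and replicate 2, formed 1 group, so no groups could be compared. Differences within the libraries are given with their intervals and not tested, since an exact sign-flip test of 2 values cannot go below p = 0.5. Values were deposited as TPM, in which the reads of a gene are divided by its length and brought to the same total in each library, so that levels can be compared between genes. Replicate 1 held 15912466 reads and replicate 2 held 5458685, worked back from the TPM over the 18748 rows matched to a gene length. Intervals are exact 95% Poisson intervals of the reads, covering counting error only.

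The cells were checked against markers. All 10 PGC markers reached 1 TPM in both libraries, beside 60.0% of all rows. The highest was Dppa3, a maternal and germline factor, at 5013 and 5075 TPM in replicates 1 and 2. The lowest was Pou5f1, the pluripotency factor, at 1.54 and 1.46 TPM on only 33 and 11 reads. Embryonic globin was also present: 4 of the 5 erythroid markers measured, all of them globin genes, reached 1 TPM in both libraries, and Hba-x stood at 2331 and 2065 TPM. The only marker of that list that is not a globin, Klf1, had 0.275 and 1.56 TPM on 4 and 8 reads. The erythroid list summed to 3975 and 3762 TPM, beside 5705 and 5776 TPM for the PGC list. Summed levels of the other marker lists were low, 6.41 and 7.05 TPM over 3 neural genes, 12.5 and 10.8 TPM over 4 endothelial genes, 2.37 and 3.95 TPM over 5 mesenchymal genes with Lum at 0 in both, and 19.4 and 9.53 TPM over 4 macrophage genes. Emcn of the endothelial and C1qb of the macrophage list were at 0 in replicate 2. The part of such cells in the member levels was not tested, and in a bulk library fewer cells of a type cannot be told apart from less RNA per cell.

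Remodelers use the energy of ATP to slide, evict or exchange nucleosomes. They fall into the SWI/SNF, ISWI, CHD and INO80 families, named for their ATPases, and most work in complexes in which the ATPase is joined by targeting and scaffold subunits that often come in alternative paralogs. Histone deacetylases (HDACs) remove acetyl groups from histone tails, the class I enzymes within corepressor complexes such as NuRD, SIN3 and CoREST, whereas sirtuins do so at the expense of NAD. Germ cell precursors at this stage are known for broad loss of DNA methylation and a change of histone marks.

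Of the 69 members, 55 (79.7%) reached 1 TPM in both libraries, against 60.0% of all rows. Among protein-coding rows alone it was 52 of 66 members (78.8%) and 69.5% of all such rows. At 10 TPM in both libraries the share was 16 members (23.2%), against 25.3% of all rows. The median log2(TPM + 1) of the members was 2.49 in replicate 1 and 2.51 in replicate 2, above the 1.89 and 1.85 of all rows. Part of that distance lay in rows with little or no signal: among rows with a mean of at least 1 TPM the median was 2.71 for members and 2.91 for all rows. The share of members detected was therefore above that of the table, by less when protein-coding rows alone were set beside it, whereas among detected rows their middle level was lower than that of all rows. Within the members, expression was uneven, and the 4 highest, Hdac2, Smarca5, Actl6a and Sirt1, held 43.1% and 42.3% of the 764 and 705 TPM summed over all members. With the longest transcript of each gene as its length, an alternative chosen after seeing the data, this order changed. Brd8, at 52.6 and 44.1 TPM, then stood above Sirt1, at 51.5 and 37.7 TPM. Actl6a, at 106 and 94.6 TPM, stood above Smarca5, at 79.8 and 76.2 TPM.

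**Figure D1:**
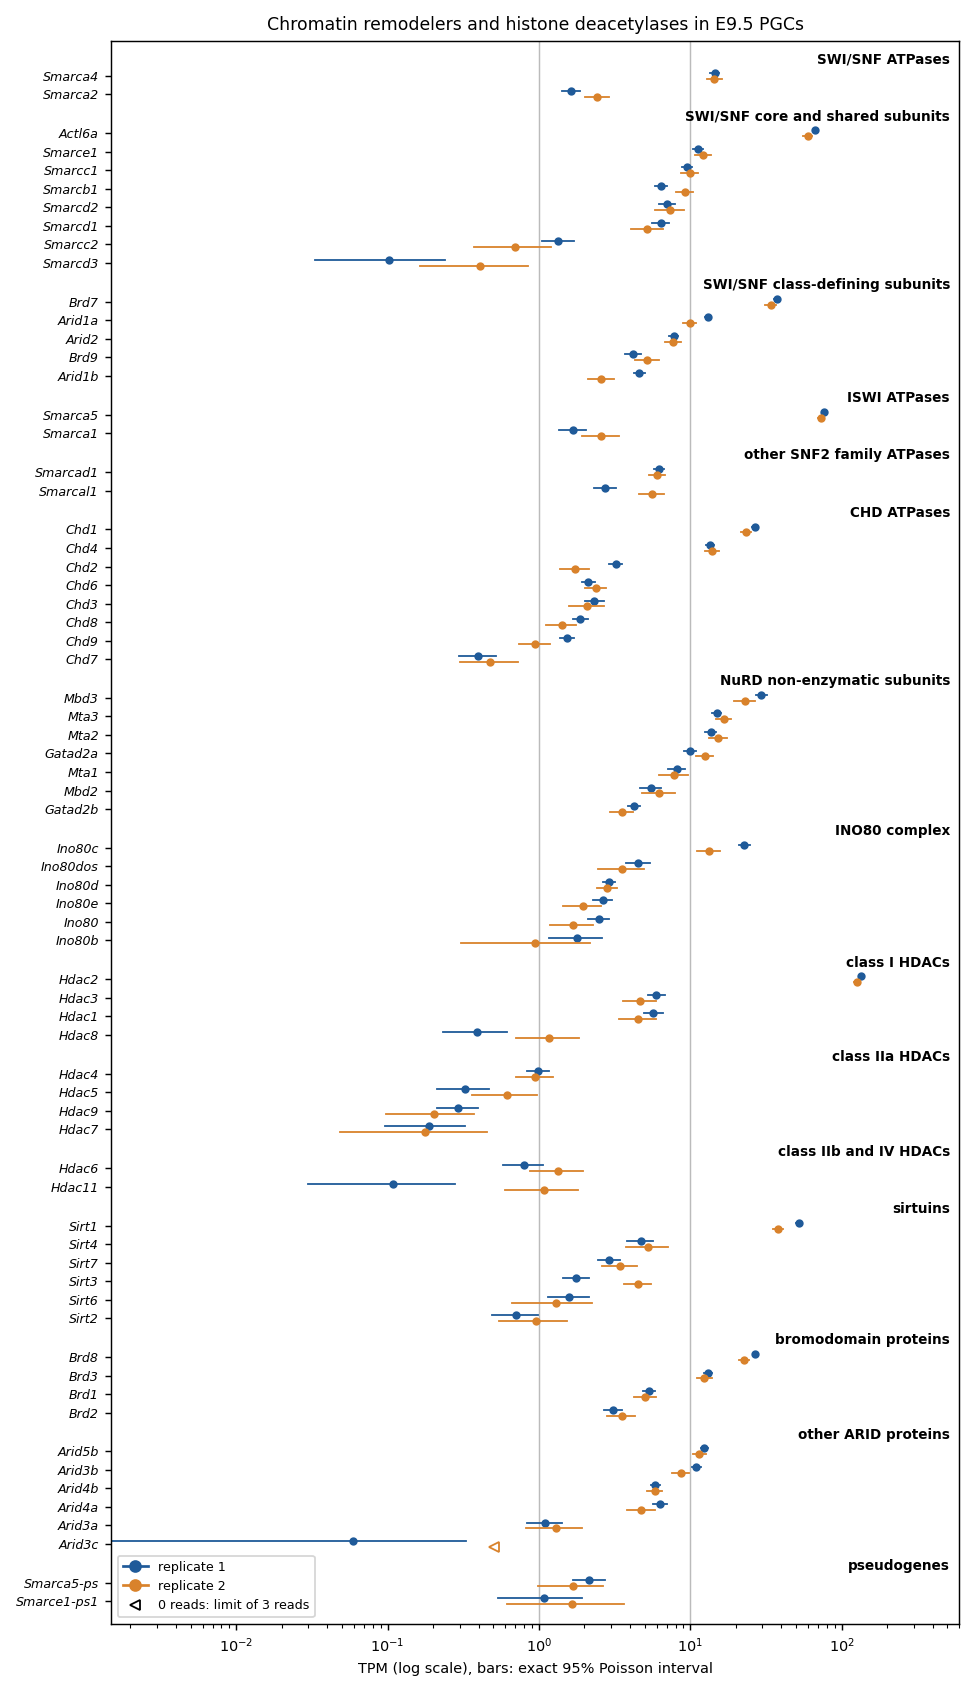
TPM (log axis) of 68 of the 69 members in replicate 1 (blue) and replicate 2 (orange), grouped by role, with exact 95% Poisson intervals as bars, grey lines at 1 and 10 TPM, and an open triangle at the limit of 3 reads where no read was found. Hdac2 at 134 and 127 TPM and Smarca5 at 76.4 and 73.2 TPM stand apart from their relatives, and the 4 class IIa HDACs lie under 1 TPM in both libraries.

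Histone deacetylases were dominated by Hdac2, a class I enzyme and a catalytic subunit of NuRD, SIN3 and CoREST. Hdac2 (mm10 chr10:36974544-37001889) had 134 TPM in replicate 1 and 127 TPM in replicate 2, resting on 5695 and 1898 reads, and was the highest of all members, above 94.7% of the rows of the table. It made up 90.1% and 89.6% of the TPM summed over the 10 HDACs measured. Hdac1, its paralog in the same complexes, had 5.71 TPM (interval 4.92 to 6.59) and 4.51 TPM (3.37 to 5.92). Hdac2 was thus 23.5-fold (interval 20.3 to 27.3) and 28.1-fold (21.3 to 37.8) above Hdac1 in replicates 1 and 2. Hdac3, the deacetylase of the NCoR complex, had 5.98 and 4.68 TPM, and its level could not be told from that of Hdac1, with Hdac1 to Hdac3 ratios of 0.954 (0.781 to 1.16) and 0.965 (0.660 to 1.42). This order depended on the gene length: with the longest transcript of each gene as its length, an alternative chosen after seeing the data, Hdac1 was 1.43-fold (1.17 to 1.73) and 1.44-fold (0.986 to 2.13) above Hdac3. Hdac8, the class I enzyme that deacetylates cohesin, had 0.391 and 1.17 TPM on 18 and 19 reads.

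The value of Hdac1 has a limit that comes from its sequence. Of the 3636 windows of 100 bases in its annotated transcripts 24.9% occur exactly in another gene, 905 of them in the processed pseudogene Gm10093 (chr17:78491582-78493025). Gm10093 itself had 12.3 and 13.6 TPM, more than Hdac1. How reads that fit both places were assigned is not stated, so the division between gene and copy is uncertain. With both rows added together, a sum chosen after the values were seen, Hdac1 and Gm10093 had 18 and 18.1 TPM and Hdac2 was 7.44-fold and 7.0-fold above that sum. Each row is divided by its own length, 3445 bases for Hdac1 and 1444 for Gm10093. The sum is therefore not the level Hdac1 would have if all these reads were its own, and sets no bound on the Hdac2 to Hdac1 ratio. No such window of Hdac2 was found elsewhere.

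Class IIa HDACs, signal-dependent enzymes best known from muscle, heart and the nervous system, were low throughout. None of the 4 reached 1 TPM in both libraries, whereas 69.5% of protein-coding rows did. With the longest transcript as length Hdac4 also did so, at 1.59 and 1.51 TPM. Hdac4, of whose exonic bases 22.4% overlap other genes, had 0.991 and 0.946 TPM, and Hdac5 had 0.323 and 0.613 TPM. Hdac9 had 0.294 TPM on 41 reads and 0.204 TPM on 10 reads. Hdac7 had 0.187 TPM on 12 reads and 0.177 TPM on 4 reads, so the order of Hdac7 and Hdac9 was not resolved by their intervals. Hdac6, the cytoplasmic class IIb enzyme that acts on tubulin, had 0.796 and 1.34 TPM. Hdac11, the class IV enzyme, was the least repeatable of the HDACs, with 0.109 TPM (0.0298 to 0.280) on 4 reads in replicate 1 and 1.09 TPM (0.595 to 1.83) on 14 reads in replicate 2. Its exons overlap those of other annotated genes over 17.9% of their length, and it is not stated if strand was used in counting.

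Among the sirtuins, Sirt1, the nuclear NAD-dependent deacetylase, was high, with 52.2 TPM (50.2 to 54.2) in replicate 1 and 38.2 TPM (35.4 to 41.2) in replicate 2, which did not overlap. It held 81.7% and 71.3% of the sirtuin TPM. Sirt6, another nuclear sirtuin that acts on histone H3, had 1.59 and 1.29 TPM, so that Sirt1 was 32.9-fold (24.3 to 45.8) and 29.6-fold (16.9 to 57.7) higher. Sirt2, the mainly cytoplasmic member, was the lowest with 0.710 and 0.951 TPM. With the longest transcript as length Sirt2 had 1.39 and 1.85 TPM and passed Sirt6, at 1.92 and 1.55 TPM, in replicate 2. The mitochondrial Sirt3 had 1.76 TPM (1.43 to 2.14) and 4.51 TPM (3.62 to 5.54), a 2.56-fold higher value in replicate 2. Other genes overlap 12.7% of its exonic bases, among them Ric8a at 3.50 and 3.51 TPM and Psmd13 at 7.16 and 11.2 TPM. The part of that overlap in the Sirt3 values was not tested. All sirtuins but Sirt2, 5 of 6, reached 1 TPM in both libraries as deposited, beside 69.5% of protein-coding rows.

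SWI/SNF complexes are built on either of 2 ATPases. Smarca4 had 14.5 TPM (13.6 to 15.5) in replicate 1 and 14.4 TPM (12.9 to 16.1) in replicate 2, a difference of -0.01 on the log2(TPM + 1) scale. Smarca2, the alternative ATPase, had 1.63 and 2.43 TPM. Smarca4 was 8.92-fold (7.69 to 10.4) and 5.93-fold (4.77 to 7.40) higher, and held 89.9% and 85.6% of the sum. The size of this ratio depended on the gene length used: Smarca2 has 14269 exonic bases in all but 5921 in its longest transcript, and with the longest transcript as length the difference on the log2(TPM + 1) scale was 1.40 instead of 2.37.

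Among the core and shared subunits Smarcc1, a scaffold subunit, had 9.52 and 9.89 TPM, whereas its paralog Smarcc2 had 1.35 TPM on 71 reads and 0.700 TPM on 13 reads. The Smarcc1 to Smarcc2 ratio was 7.08 (5.54 to 9.17) in replicate 1 and 14.1 (8.11 to 26.9) in replicate 2. Actl6a, the actin-related subunit of proliferating cells, was the highest shared subunit with 66.8 and 59.7 TPM, and 11.6% of its exonic bases overlap Mrpl47 on the opposite strand, itself at 152 and 153 TPM. How much of the Actl6a value comes from that overlap was not tested. Smarce1, a subunit with an HMG box, had 11.2 and 12.2 TPM, and Smarcb1, a core subunit known as a tumour suppressor, had 6.41 and 9.20 TPM. Of the 3 alternative SMARCD subunits, Smarcd1 (6.38 and 5.2 TPM) and Smarcd2 (7.03 and 7.33 TPM) were close, and the interval of their ratio included 1 in replicate 1. Smarcd3, the form known from heart and muscle, had 0.103 TPM on 5 reads and 0.409 TPM on 7 reads, and 48.2% of its exonic bases overlap other genes, chiefly Chpf2 on the opposite strand.

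All 5 subunits that define the SWI/SNF classes reached 1 TPM in both libraries, beside 69.5% of protein-coding rows. Arid1a, which marks canonical BAF, had 13.1 TPM in replicate 1 and 9.90 TPM in replicate 2. Its paralog Arid1b had 4.6 and 2.59 TPM, so that Arid1a was 2.85-fold (2.58 to 3.15) and 3.83-fold (3.09 to 4.78) higher. Arid2, found in PBAF, had 7.77 and 7.69 TPM. Brd7, also a PBAF subunit, was the highest of these with 37.7 and 34.1 TPM, against 4.18 and 5.17 TPM for Brd9, the bromodomain subunit of non-canonical BAF. Brd7 was 9.02-fold (7.95 to 10.3) and 6.59-fold (5.41 to 8.09) above Brd9.

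ISWI remodelers, which space nucleosomes, were represented almost wholly by Smarca5 (chr8:80698507-80739497), with 76.4 TPM in replicate 1 and 73.2 TPM in replicate 2. Smarca1, the X-linked paralog best known from neurons, had 1.67 and 2.59 TPM. Smarca5 was 45.8-fold (37.5 to 56.6) and 28.2-fold (21.5 to 37.8) higher and made up 97.9% and 96.6% of the sum. Several processed pseudogenes on chromosome 4 carry Smarca5 sequence, and 16.8% of its 100-base windows occur in another gene. The highest of these copies, Gm13135, had 7.58 and 8.72 TPM, and Smarca5-ps, a member by name, had 2.16 and 1.67 TPM. Of the related ATPases, Smarcad1, a remodeler of heterochromatin, had 6.22 and 6.02 TPM, and Smarcal1, an annealing helicase of stalled forks, had 2.74 TPM (2.31 to 3.21) and 5.59 TPM (4.58 to 6.75).

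The CHD family was led by Chd1, a remodeler that travels with elongating RNA polymerase, with 26.9 TPM in replicate 1 and 23.3 TPM in replicate 2. Chd4, the ATPase of NuRD, followed with 13.5 and 14.0 TPM, and both together exceeded all other CHD genes, Chd1 holding 51.8% and 50.3% and Chd4 26.1% and 30.2% of the family sum. Chd3, the alternative NuRD ATPase, had 2.33 and 2.09 TPM, 5.80-fold (4.96 to 6.82) and 6.67-fold (5.06 to 8.94) under Chd4. Chd2 had 3.22 TPM (2.93 to 3.54) and 1.74 TPM (1.38 to 2.15), with Chd1 8.33-fold and 13.4-fold above it. Part of Chd2, 19.3% of its exonic bases, is shared with other genes, chiefly 1810026B05Rik on the same strand.

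The remaining CHD genes were low. Chd6 had 2.13 and 2.38 TPM, Chd8 had 1.88 and 1.41 TPM, and Chd9 had 1.55 and 0.943 TPM. Chd7, a remodeler of neural crest enhancers, was the lowest of the family with 0.397 TPM on 52 reads and 0.477 TPM on 22 reads, and Chd8 was 4.73-fold (3.52 to 6.49) and 2.96-fold (1.82 to 4.99) above it.

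NuRD couples a CHD ATPase to class I deacetylases. All 7 of its non-enzymatic subunits reached 1 TPM in both libraries, beside 69.5% of protein-coding rows. Mbd3, which defines the MBD3 form of the complex, had 29.4 TPM (27.0 to 31.9) in replicate 1 and 22.9 TPM (19.4 to 26.8) in replicate 2. Mbd2, which binds methylated DNA and defines the alternative form, had 5.47 and 6.24 TPM, so that Mbd3 was 5.38-fold (4.51 to 6.43) and 3.67-fold (2.74 to 4.97) higher. The 3 MTA scaffold subunits lay closer together. Mta3 had 15.0 and 16.6 TPM and Mta2 had 13.7 and 15.3 TPM, whose ratio could not be told from 1 in either library (Mta2 to Mta3, 0.914 with an interval of 0.817 to 1.02, and 0.925 with 0.771 to 1.11). With the longest transcript as length the same ratio was 0.738 (0.659 to 0.825) and 0.746 (0.622 to 0.894), so that Mta3 then stood above Mta2 in both. Mta1 had 8.13 and 7.81 TPM, and Mta2 was 1.68-fold (1.44 to 1.97) and 1.97-fold (1.51 to 2.57) above it. Gatad2a, the zinc finger subunit that bridges to the ATPase, had 9.96 and 12.5 TPM, and its paralog Gatad2b had 4.27 and 3.53 TPM.

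The 6 INO80 rows all read lower in replicate 2, with a median difference of -0.35 on the log2(TPM + 1) scale, beside 42 of the 69 members (60.9%) and 51.3% of all rows. The 6 rows include the non-coding RNA Ino80dos, with 4.53 and 3.53 TPM, and 31.9% of its exonic bases lie in other genes. Ino80c was the highest, with 22.8 TPM (21 to 24.6) in replicate 1 and 13.2 TPM (11 to 15.8) in replicate 2. Ino80, the ATPase of the complex, had 2.49 and 1.67 TPM. Ino80b was the lowest with 1.78 TPM on 27 reads and 0.938 TPM on 5 reads. Of these 6 rows Ino80c alone had intervals that did not overlap.

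Members outside these complexes were led by Brd8, a TIP60 complex subunit, with 26.9 and 22.6 TPM. Brd2, a BET protein that reads acetylated histones, was the lowest of the other bromodomain genes with 3.09 and 3.53 TPM. Its relative Brd3, with 13.1 and 12.4 TPM, ranked above it. The other ARID genes ranged from Arid5b, a partner of the histone demethylase Phf2, at 12.4 and 11.5 TPM down to Arid3c at 1 read in replicate 1 and 0 reads in replicate 2, the lowest of all members. With the longest transcript as length Arid5b, at 13.5 and 12.5 TPM, was no longer the highest. Arid3b, at 17.2 and 13.5 TPM, and Arid4b, at 14.0 and 13.8 TPM, then stood above it.

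Paralogs were compared systematically within each library. Of 22 alternative or related pairs listed 20 had both genes in the table, and in 20 of 20 the order was the same in both replicates. In 13 the difference exceeded 2-fold on the log2(TPM + 1) scale in the same direction in both. The interval of the ratio excluded 1 in both libraries for 17 pairs, the exceptions being Smarcd1 with Smarcd2, Mta2 with Mta3 and Hdac1 with Hdac3. With the longest transcript as length it did so for 18, Mta2 with Mta3 being the pair gained. These intervals hold counting error only, and n = 2 libraries limits what can be said of the spread between embryos.

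**Figure D2:**
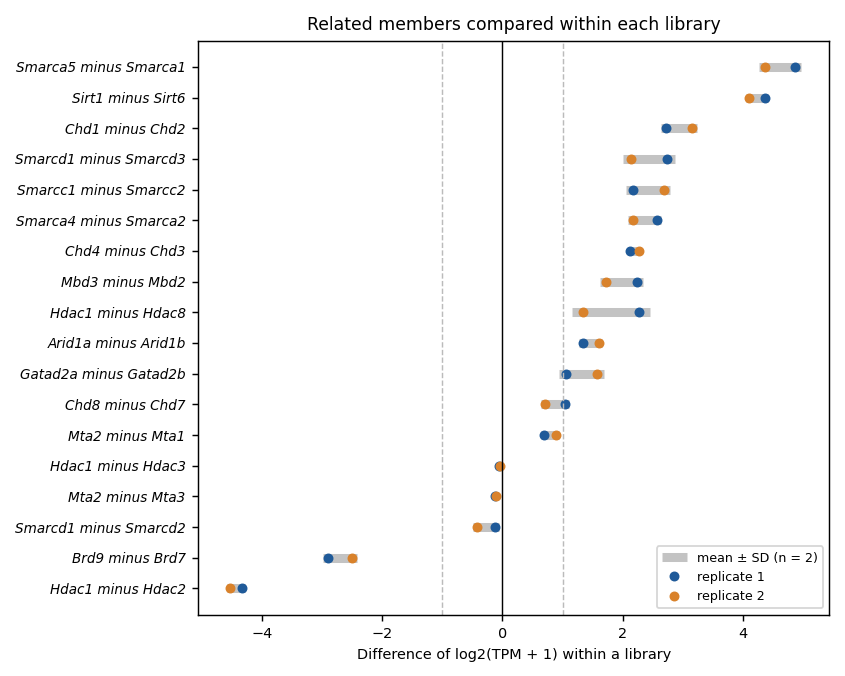
Difference of log2(TPM + 1) between the genes of 18 of the 20 pairs within replicate 1 (blue) and replicate 2 (orange), with the mean ± SD of both as a grey bar and dashed lines at a 2-fold difference. Points run from Smarca5 minus Smarca1 at 4.86 and 4.37 to Hdac1 minus Hdac2 at -4.33 and -4.54, and no pair drawn changes side between replicates.

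The genes that work with these members were given by lists of named complex subunits, 70 genes of which 64 had a row. In all, 57 of the 64 partners (89.1%) reached 1 TPM and 24 (37.5%) reached 10 TPM in both libraries, beside 60.0% and 25.3% of all rows. The highest was Hat1, the acetyltransferase of newly made histone H4, with 626 and 562 TPM, and Kat6a was the lowest of the acetyltransferases by mean with 2.58 and 1.56 TPM. In the INO80, SRCAP and TIP60 list Actr6, an actin-related subunit of SRCAP, stood at 375 and 290 TPM, whereas Srcap, the ATPase of that complex, had 0.287 and 0.303 TPM and was the lowest partner of all. Rbbp7, the histone-binding subunit shared by NuRD and SIN3, had 133 and 138 TPM, close to the level of Hdac2, and its paralog Rbbp4 was the lowest NuRD partner with 9.94 and 13.5 TPM.

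Among the corepressor partners of Hdac1, Hdac2 and Hdac3, Sap18 of the SIN3 complex was highest with 144 and 152 TPM. The ISWI partners ran from Chrac1, a histone-fold subunit, at 65.5 and 66.1 TPM to Baz1a, its partner in the CHRAC complex, at 2.17 and 1.96 TPM. The SWI/SNF partners ran from Ss18, a BAF subunit, at 45.0 and 38.8 TPM to Bcl11b, known from T cells and neurons, at 0.597 and 0.184 TPM.

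**Figure D3:**
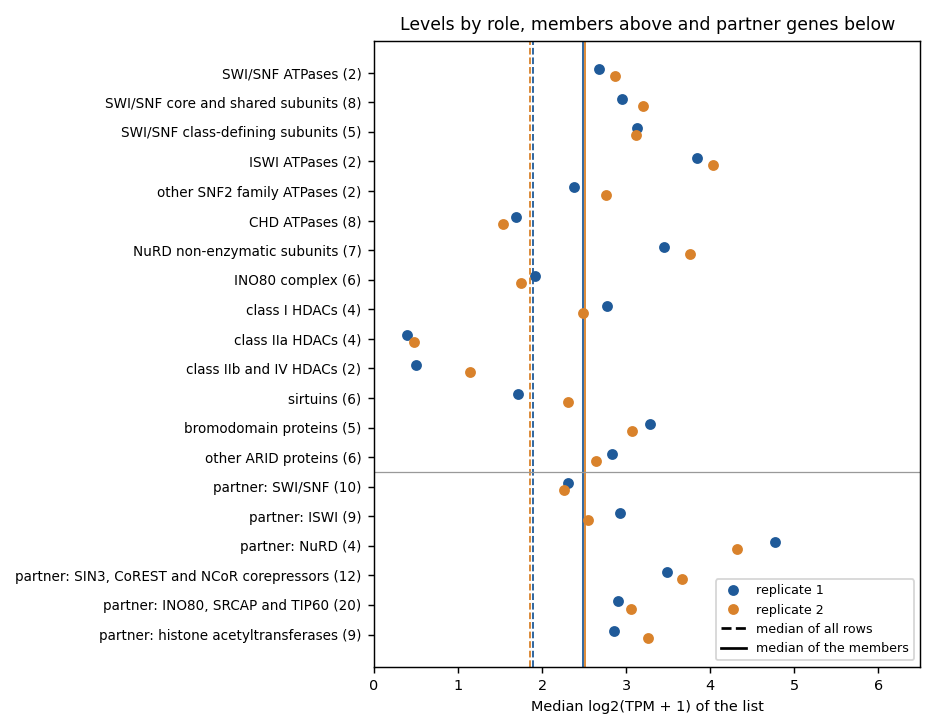
Median log2(TPM + 1) of each role group of members (above the grey line) and of each partner list (below it) in replicate 1 (blue) and replicate 2 (orange), with the number of genes in brackets, the medians of all rows as dashed lines and of the 69 members as solid lines. Class IIa HDACs have the lowest medians at 0.39 and 0.48, and among the member groups ISWI ATPases at 3.85 and 4.03 and NuRD subunits at 3.45 and 3.76 have the highest.

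The replicates were then compared member by member. Across the 69 members log2(TPM + 1) correlated between the libraries with Pearson's r of 0.977 and Spearman's rho of 0.971, given as a description across genes that share both libraries. The SD of the difference was 0.34 for members and 0.65 for all rows, and the median difference, replicate 2 minus replicate 1, was -0.05 and -0.01. The SDs of members and all rows lay closer at most like depths. With 500 to 2000 reads over both libraries they were 0.29 and 0.31, and with 100 to 500 reads 0.38 and 0.48. With 2000 to 10000 reads they were 0.13 and 0.21, and with 20 to 100 reads 0.36 and 0.73. No member was more than 2-fold higher in replicate 2 on the log2(TPM + 1) scale, against 4.31% of all rows, and none was more than 2-fold higher in replicate 1, against 5.89%. These shares of all rows were not matched for depth. Sirt3 lay nearest to that limit, at 1.0 after rounding.

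Counting error alone did not cover every difference. The intervals of 18 members (26.1%) did not overlap between libraries, 7 higher in replicate 2 and 11 higher in replicate 1, against 24.7% of all rows with a length. Among all rows with 20 to 10000 reads the share apart rose with depth. With 2000 to 10000 reads over both libraries 4 of 7 members were apart, beside 46.1% of rows, and with 500 to 2000 reads 8 of 24, beside 36.4%. With 100 to 500 reads it was 4 of 22 members, beside 28.8% of rows, and with 20 to 100 reads 1 of 11, beside 22.5%. Those higher in replicate 1 were Actl6a, Arid1a, Arid1b, Arid3b, Brd8, Chd1, Chd2, Chd9, Ino80c, Mbd3 and Sirt1, and those higher in replicate 2 were Gatad2a, Hdac8, Hdac11, Sirt3, Smarca2, Smarcal1 and Smarcb1. On the TPM scale Hdac11 differed 9.95-fold on 4 and 14 reads, Hdac8 3.0-fold on 18 and 19 reads, and Sirt3 2.56-fold on 100 and 90 reads. Some markers of other cell types also differed between the libraries. Lower in replicate 2 were 4 of 4 macrophage, 3 of 4 endothelial and 3 of 5 erythroid markers, beside 51.3% of all rows. The same held for 7 of 10 PGC markers. Of the macrophage markers only Csf1r, from 4.29 to 2.02 TPM, had intervals apart. Of the erythroid markers Hba-x was lower with intervals apart, whereas Hbb-y, from 927 to 1025 TPM, was higher with intervals apart. Emcn went from 2.12 to 0 TPM, whereas Pecam1, the highest endothelial marker, had 8.23 and 9.99 TPM. Higher in replicate 2 were 4 of 5 mesenchymal and 3 of 3 neural markers, beside 40.9% of all rows. Among the mesenchymal markers only Pdgfra, from 0.147 to 0.806 TPM, had intervals apart. The intervals of every neural marker overlapped, with Pax6 at 3.55 and 3.56 TPM. Their part in the differences between the replicates was not tested.

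**Figure D4:**
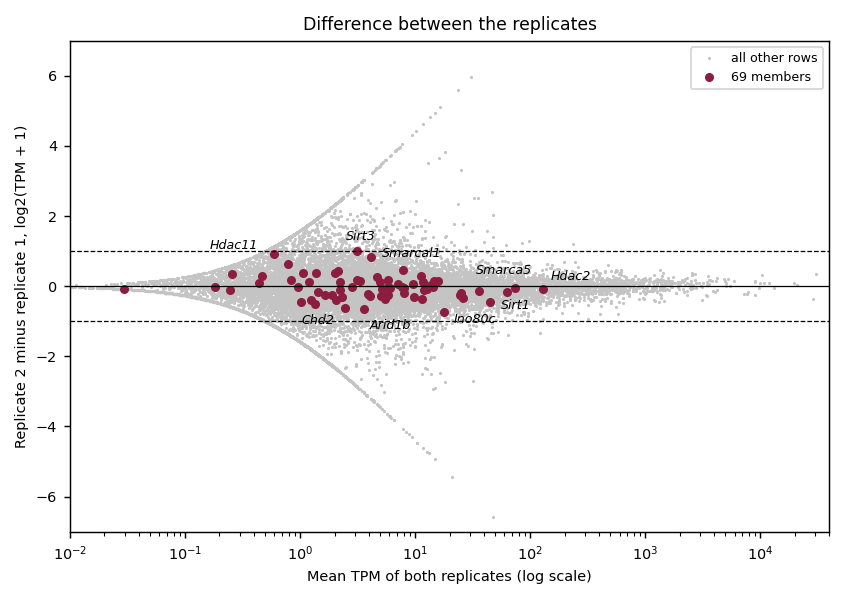
Difference of log2(TPM + 1), replicate 2 minus replicate 1, against the mean TPM of both (log axis) for the 69 members (dark red) and all other rows with signal (grey), with dashed lines at 2-fold. Members stay inside the dashed lines, with Sirt3 at 1.0 on the upper and Ino80c at -0.74 nearest to the lower.

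Promoters were examined last, since CpG-rich promoters are typical of broadly expressed genes and CpG-poor ones of tissue-restricted genes. A RefSeq promoter on GRCm38.p6 (the assembly of mm10) was found for 51 of the 69 members, and the 250 bases before the start nearest to the annotated 5′ end were used. With CpG-rich defined as a GC content of at least 50% and an observed over expected CpG ratio of at least 0.6, 40 of 51 member promoters (78.4%) were CpG-rich, against 60.2% of the 10819 promoters matched in all and 66.5% of those of protein-coding rows at a mean of at least 1 TPM. For 8 of the 51 members the start used lay 1393 to 42669 bases from the annotated 5′ end, and with starts within 1000 bases 33 of 43 (76.7%) were CpG-rich, against 62.4% of all. The median was 19 CpGs for members and 15 for all. By level, 12 of 13 members at 10 TPM or more, 23 of 29 from 1 to 10 TPM and 5 of 9 under 1 TPM were CpG-rich, beside 70.7%, 63.6% and 50.7% of protein-coding rows at the same levels. The promoters of 4 members are printed after their names, chosen after the values were seen, to set the highest HDAC beside a low one and the main SWI/SNF ATPase beside a low scaffold subunit with many CpGs. Each is the 250 bases upstream of the start, 5′ to 3′ on the gene's strand, with every CpG in capitals.
Hdac2, chr10:36974294-36974543, plus strand, 27 CpGs: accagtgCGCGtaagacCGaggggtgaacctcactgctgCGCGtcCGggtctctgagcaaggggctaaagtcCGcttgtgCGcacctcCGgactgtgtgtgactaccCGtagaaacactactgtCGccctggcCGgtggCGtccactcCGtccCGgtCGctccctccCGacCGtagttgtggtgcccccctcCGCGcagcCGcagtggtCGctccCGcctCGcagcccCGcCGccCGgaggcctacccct
Hdac9, chr12:34917096-34917345, minus strand, 0 CpGs: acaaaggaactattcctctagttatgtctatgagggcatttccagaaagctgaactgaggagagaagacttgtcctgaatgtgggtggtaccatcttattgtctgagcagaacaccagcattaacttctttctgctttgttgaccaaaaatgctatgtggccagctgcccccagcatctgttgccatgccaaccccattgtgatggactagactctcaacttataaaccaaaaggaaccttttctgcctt
Smarca4, chr9:21615919-21616168, plus strand, 25 CpGs: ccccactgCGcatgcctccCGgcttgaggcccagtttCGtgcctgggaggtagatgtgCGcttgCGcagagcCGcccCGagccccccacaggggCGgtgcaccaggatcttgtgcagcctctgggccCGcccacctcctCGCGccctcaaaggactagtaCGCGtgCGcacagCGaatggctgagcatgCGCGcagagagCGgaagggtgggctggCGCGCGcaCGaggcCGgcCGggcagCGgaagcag
Smarcc2, chr10:128458986-128459235, plus strand, 40 CpGs: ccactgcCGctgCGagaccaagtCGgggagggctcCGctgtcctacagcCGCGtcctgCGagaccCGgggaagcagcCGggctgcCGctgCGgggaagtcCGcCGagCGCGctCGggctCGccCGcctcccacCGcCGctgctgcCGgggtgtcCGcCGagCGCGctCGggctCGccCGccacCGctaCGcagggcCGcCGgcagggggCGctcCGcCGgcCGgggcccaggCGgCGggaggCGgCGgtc

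The sequence of Hdac2, at 134 and 127 TPM, carried 27 CpGs with an observed over expected ratio of 0.931. That of Hdac9, at 0.294 and 0.204 TPM, carried none and held the motif TATAAA close to its 3′ end. Smarca4 had 25 CpGs (0.798) at 14.5 and 14.4 TPM. Smarcc2 had the most of the 4, 40 CpGs (0.980), yet its level was 1.35 and 0.700 TPM. Arid5b ran the other way, with 4 CpGs (0.363) at a mean of 11.9 TPM. Across the 51 members Spearman's rho between the CpG ratio and mean log2 TPM was 0.32, and across all 10819 matched rows 0.24, both given as descriptions across genes.

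TATAAA on either strand was found in 5 of the 51 windows (9.80%) and in 6.89% of all, and CCAAT on either strand in 17 (33.3%) and in 37.4% of all. A match is a run of letters, not a bound site.

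**Figure D5:**
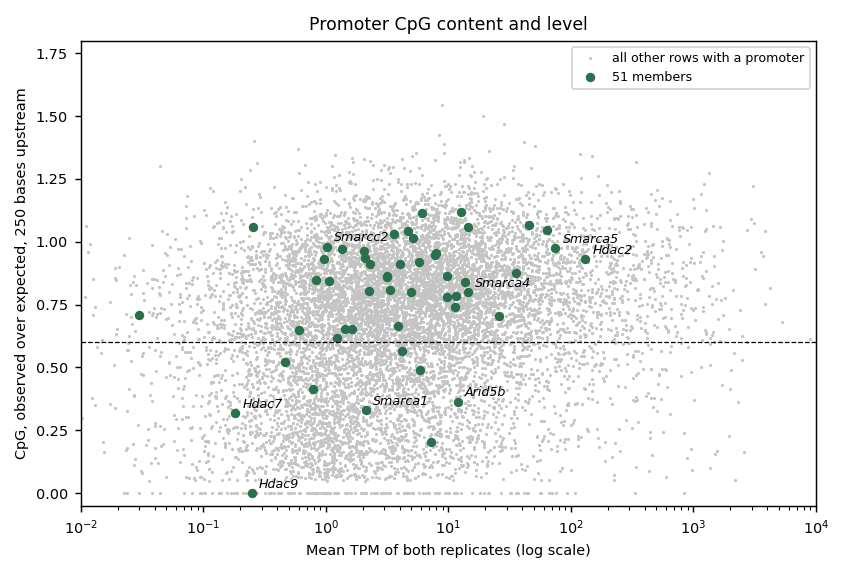
Observed over expected CpG ratio in the 250 bases upstream of the start against the mean TPM of both replicates (log axis) for 51 members (green) and all other rows with a promoter (grey), with a dashed line at 0.6. Hdac2 and Smarca5 lie at upper right, Hdac7 and Hdac9 at lower left, and Smarcc2 and Arid5b depart from that order.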

How the data were processed

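RNA-seq of 2 E9.5 PGC libraries was analysed. The authors aligned reads to mm10 with Hisat2, counted them per gene with featureCounts and deposited TPM; the submitters' processing notes also name Bowtie2, RSEM, DESeq2 and R 3.4.2. The methods name Smart-seq2 and the labels another kit, so the chemistry is uncertain. Annotation, strand use and the treatment of multimapping reads are not stated, which bears on genes with copies or overlaps.

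TPM was multiplied by GENCODE M21 exon length, and 96.7% and 95.8% of values under 50 reads came within 0.02 of whole reads. 65 of 69 members were whole in both libraries; Brd2, Chd1 and Hdac3 were among those that were not. Reads gave depth, exact 95% Poisson intervals (binomial for ratios) and a limit of 3 reads for a 0. Levels were analysed as log2(TPM + 1), which understates differences between low genes. Python 3.11.15, numpy 2.4.6, pandas 2.3.3 and scipy 1.17.1 were used, and scripts were tested on simulated data.

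The members and lists were chosen with earlier results of these data known. All members of the SWI/SNF, ISWI, CHD, NuRD and HDAC lists and all pairs were named, and of other lists the highest and lowest gene; others were named after their values were seen, and a few items are not reported here. Alternatives were detection limits, pseudocount, low-value filter, rescaling, gene length and leaving out each replicate.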

Additional observations from a re-analysis of the deposited data

How the results depend on the processing

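Counts and pair orders held under most alternatives, and the median level depended on the scale. At a limit of 5 TPM in both libraries 30 members were detected, against 35.5% of all rows. Members at 10 TPM in both libraries numbered 16 as deposited, 20 after rescaling over rows of at least 200 exonic bases and 21 with the longest transcript as length. The shares of all rows at 10 TPM were not computed under these alternatives. The members' median log2 level was 2.24 with a pseudocount of 0.1 (all rows 1.46). Over rows with a mean of at least 1 TPM it was 2.71 (all rows 2.91). After the rescaling it was 2.68 (all rows 2.08). With the longest transcript, an alternative chosen after seeing the data, it was 2.66 (all rows 1.89). With a pseudocount of 0.1, 5 members (Hdac11, Hdac8, Sirt3, Smarcal1 and Smarcd3) differed more than 2-fold between replicates, against 23.7% of all rows, and with median-ratio scaling 1 did (Sirt3), against 10.2%. The causes were not tested.

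Leaving out either replicate gave 58 to 58 members at 1 TPM, 17 to 18 at 10 TPM, a median of 2.49 to 2.51 and 13 to 15 pairs over 2-fold. A limit met in a single library is looser than one met in both. The matching shares of all rows were not computed, so these counts cannot be set against the table. With the longest transcript Chd9, Hdac4 and Sirt2 reached 1 TPM in both libraries, and Arid3a and Smarce1-ps1 did not. It gives no value for differences between replicates. Of 80 pair values under alternatives 79 kept their sign, the exception being Hdac1 minus Hdac3, -0.05 against 0.44 with the longest transcript. No paired analysis was possible because the samples form 1 group. Depth limits the genes under 1 TPM, where Hdac7, Hdac11 and Smarcd3 rest on 4 to 14 reads.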
